A study of Mus musculus with 8 samples.

Results

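The E2F and Rb family is described here by 10 genes, the transcription factor genes E2f1, E2f2, E2f3, E2f4, E2f7 and E2f8, the partner gene Tfdp1 and the pocket protein genes Rb1, Rbl1 and Rbl2. They were taken by name, as a gene family, from 23361 genes measured by RNA sequencing, with earlier results of these data known. The RNA came from iTreg, regulatory T cells that are induced in culture. Naïve CD4+ T cells of wild-type Foxp3-RFP reporter mice, in which red fluorescence marks cells that express Foxp3, were stimulated with anti-CD3/CD28 beads, IL-2 at 50 U/ml and TGF-β at 2 ng/ml. Foxp3-RFP+ cells were then sorted by the surface protein neuropilin-1 (Nrp-1), and 4 libraries of Nrp-1+ iTreg and 4 of Nrp-1- iTreg were sequenced. The labels give day 5 in one field and 3 days of culture in another, and the study's methods give male B6 mice of 7 to 8 weeks, IL-2 in another unit and another library kit than the labels. Both groups come from the same kind of culture, so they differ by the sort and not by an added agent. The libraries are labelled biological replicates, but the labels do not say whether the 4 libraries of a group came from separate mice or cultures, so the p-values measure the spread between these libraries.

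E2F transcription factors bind DNA as dimers with a DP protein, which Tfdp1 encodes, and drive genes of DNA replication and the cell cycle. Pocket proteins (RB1, p107 encoded by Rbl1, and p130 encoded by Rbl2) bind E2F proteins and hold these genes down until cyclin-dependent kinases phosphorylate the pocket proteins. E2F1, E2F2 and E2F3 are counted as activators, E2F4 acts mostly as a repressor together with p107 and p130, and the atypical E2F7 and E2F8 repress E2F targets without a DP partner. T cells that enter division after stimulation raise many of these genes, several of which are themselves E2F targets.

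The stretches below are shown because several family genes carry a site of the kind their own proteins bind. Those of E2f8 and Rbl2 hold only the other motif searched, described below. The RefSeq promoter table of build GRCm38.p6 holds windows of 300 bases, from 250 before to 50 after an annotated start, for 8 of the 10 genes and not for E2f4 and Rb1. The windows were searched on both strands for an E2F site, written here as TTTCCCGC, TTTCGCGC, TTTGCCGC or TTTGGCGC, and for the cell cycle homology region (CHR) TTTGAA, at which the DREAM and MuvB complexes bind. Capitals mark the matches, sequences run 5′ to 3′ on the strand of the gene, and position 1 is the annotated start. A match on the other strand reads as its reverse complement (GCGGGAAA, GCGCGAAA, TTCAAA).
Rbl1, chr2:157204535-157204654, minus strand: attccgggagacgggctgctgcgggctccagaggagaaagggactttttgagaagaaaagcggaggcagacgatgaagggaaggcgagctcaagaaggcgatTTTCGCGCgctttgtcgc
E2f2, chr4:136172298-136172322, plus strand: tttggcggcatatagTTTGGCGCta
E2f8, chr7:48881597-48881716, minus strand: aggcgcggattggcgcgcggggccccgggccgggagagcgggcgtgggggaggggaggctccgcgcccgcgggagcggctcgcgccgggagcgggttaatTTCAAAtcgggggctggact
Tfdp1, chr8:13338631-13338750, plus strand: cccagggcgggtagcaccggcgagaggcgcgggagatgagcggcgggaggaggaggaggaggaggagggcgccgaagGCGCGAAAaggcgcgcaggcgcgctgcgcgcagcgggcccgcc
Rbl2, chr8:91069807-91069926, plus strand: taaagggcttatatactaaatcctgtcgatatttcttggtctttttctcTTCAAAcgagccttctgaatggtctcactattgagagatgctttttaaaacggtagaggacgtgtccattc
E2f7, chr10:110745209-110745268, plus strand: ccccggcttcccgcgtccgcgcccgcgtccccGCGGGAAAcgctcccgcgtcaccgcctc
E2f3, chr13:29986064-29986183, minus strand: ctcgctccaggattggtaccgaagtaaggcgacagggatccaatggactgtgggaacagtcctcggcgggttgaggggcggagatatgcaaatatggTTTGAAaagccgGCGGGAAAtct

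An E2F site was found for 5 of the 8 genes with a window (62.5%), which were Rbl1, E2f2, Tfdp1, E2f7 and E2f3. In Rbl1 it lay at -18 to -11, in Tfdp1 at -43 to -36, in E2f3 at -11 to -4 and in E2f7 at -198 to -191. The E2f2 site lay at 40 to 47 of a window whose start is 120 bases from the nearest start in the GENCODE M21 annotation. The CHR letters were found in E2f8 at -20 to -15, in E2f3 at -23 to -18, in Rbl2 at -201 to -196 and in another E2f2 window, and no match overlapped another. Among all 27025 genes of the table, 2.61% held the E2F site and 20.2% the CHR letters. The members all passed the expression filter used below, and among the 7700 such genes with a window the shares were 5.26% and 13.9%. The only E2f1 window of the table starts 294 bases from the nearest GENCODE start and held neither. A match is a description of the letters in this window and says nothing about binding in these cells.

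E2F and Rb family transcripts were for the most part higher in Nrp-1+ iTreg. Of the 10 genes 8 rose, and the 2 that did not pass the test were E2f4 and Rbl2, whose levels in both groups lay between 29.8 and 49.5 FPKM (fragments scaled by transcript length and by the mapped fragments of the library, so a level per length). The largest increases were those of the repressor genes E2f8 and E2f7 and of the activator gene E2f1, by 95.8%, 101.0% and 87.3% over the mean FPKM in Nrp-1- iTreg. The test was limma on log2(FPKM + 1) across the 10467 genes whose mean FPKM reached 1, two-sided, with Benjamini-Hochberg adjustment and a threshold of 0.05. In this fit 20.9% of all tested genes rose and 20% fell, whereas 0 of the 10 members fell, also at an unadjusted p under 0.05. The groups did not overlap in any of the 8 genes that rose, against 20.2% of all tested genes without overlap in that direction, and 0 members were without overlap in the other, against 19.3%. The median log2 difference of the 10 genes was 0.63, and that of all tested genes was -0.02, with a 5th percentile of -0.29 and a 95th of 0.57. In bulk RNA, more cells in the cycle and more RNA of these genes per cell cannot be told apart.

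**Figure D1:**
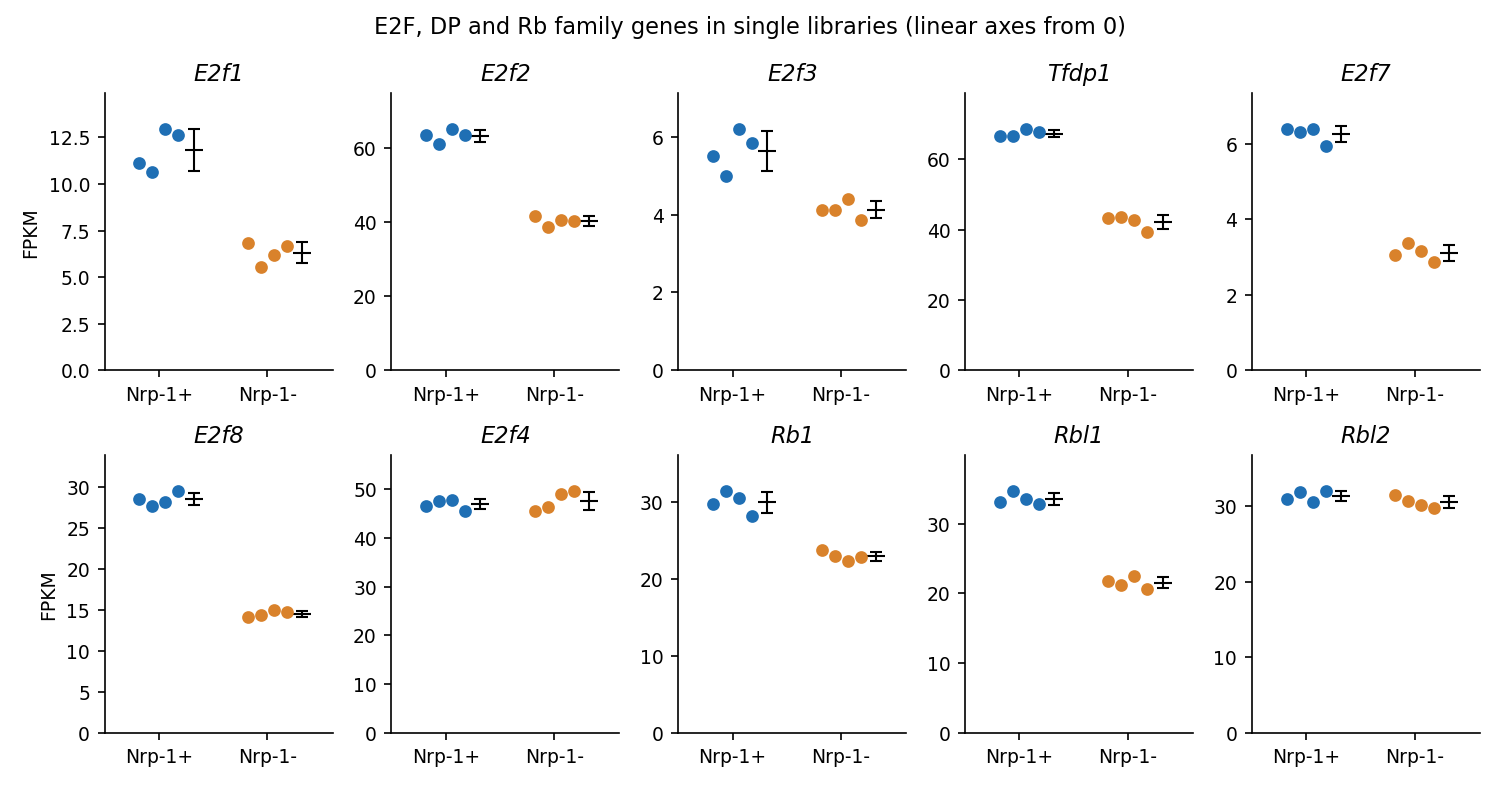
FPKM of each of the 10 genes (vertical axes, linear from 0) in the 4 Nrp-1+ iTreg and the 4 Nrp-1- iTreg libraries, with points for libraries in the order of their replicate number and bars for the mean ± SD. The points of the groups are apart in 8 panels and overlap in those of E2f4 and Rbl2.

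The sequenced libraries held about 15 to 23 M fragments, estimated from the steps of low FPKM values, and the share of summed FPKM taken by short RNA genes ranged from 1.81% to 44.0%. Of the called genes 51.1% were higher in Nrp-1+ iTreg, against 73.5% when short RNA genes were left out and the rest rescaled, and 40.0% after correction for GC content and length. Both groups expressed the genes of CD4+ Treg, with Foxp3 at 111.5 to 120.5 FPKM in Nrp-1+ iTreg and 107.1 to 109.9 in Nrp-1- iTreg and Cd4 at 308.6 to 318.8 and 309.3 to 334.7. Nrp1, which encodes the sorted protein, was at 20.4 to 22.0 and 4.70 to 5.31. Of the 8 Treg markers 4 were higher in Nrp-1+ iTreg, Nrp1 itself included, beside 20.9% of all tested genes. The 2 that were lower, Ctla4 and Cd3g (log2 differences of -0.16 and -0.11), are near the 20% lower among all tested genes. Among markers of other cells, some were at or near 0 and others were not. Ms4a1, Pax5, Pf4 and Gp9 were listed at 0 in all libraries, and Cd8a, Lyz2, Csf1r, Cd14 and Hbb-b1 stayed at or below 0.462 FPKM. Summed B cell markers (5 genes, mostly Cd79b) were at 5.21 to 5.91 in Nrp-1+ iTreg and 4.01 to 5.80 in Nrp-1- iTreg, and summed NK cell markers (4 genes, mostly Eomes) at 0.751 to 1.07 and 0.464 to 0.808. Cd8b1, Itgam and Hba-a1 were above 0 in every library and moved with the groups. The summed levels were 7.10 to 8.78 and 9.33 to 11.3 for the 2 CD8 T cell genes (Cd8b1 lower, limma adjusted p = 0.0119), 6.44 to 7.17 and 5.40 to 6.21 for the 6 of 7 myeloid and dendritic genes in the table (Itgam higher, 0.00136), and 5.51 to 8.05 and 2.04 to 3.34 for 6 erythroid and platelet genes (Hba-a1 higher, 0.000510). Their part in the results on the E2F and Rb family was not tested.

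The activator genes E2f1, E2f2 and E2f3 were all higher in Nrp-1+ iTreg. E2f1, whose product drives S phase genes and can also promote apoptosis, was at 11.1, 10.6, 12.9 and 12.6 FPKM in Nrp-1+ iTreg and at 6.81, 5.54, 6.21 and 6.70 FPKM in Nrp-1- iTreg. The lowest Nrp-1+ library was above the highest Nrp-1- library by more than the range within either group. The means were 11.8 ± 1.12 and 6.32 ± 0.578 FPKM (SD, n = 4 each), and the log2 difference was 0.81 with a standard error (SE) of 0.08 and an interval at 95% confidence of 0.63 to 0.99 (limma adjusted p = 8.76e-05). E2f1 ranked 235th of the 10467 tested genes by increase. Its FPKM correspond to about 258 to 808 fragments per library, estimated with the longest GENCODE transcript, and it had the widest interval of the 10 genes.

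E2f2 was the most abundant activator, at 63.5, 61.0, 65.0 and 63.3 FPKM in Nrp-1+ iTreg and 41.7, 38.6, 40.4 and 40.3 FPKM in Nrp-1- iTreg. All Nrp-1+ libraries lay above all Nrp-1- libraries, and the values within a group were close to each other. The means of 63.2 ± 1.65 and 40.2 ± 1.28 FPKM (SD, n = 4 each) differed by 57.0%, a log2 difference of 0.64 (SE 0.03, limma adjusted p = 1.34e-06). E2f3, at the lowest level of the activators, measured 5.50, 5.00, 6.19 and 5.83 FPKM in Nrp-1+ iTreg and 4.13, 4.12, 4.39 and 3.85 FPKM in Nrp-1- iTreg. The groups were apart, but the gap between the lowest Nrp-1+ and the highest Nrp-1- library was smaller than the range of the Nrp-1+ libraries. The E2f3 means were 5.63 ± 0.507 and 4.12 ± 0.222 FPKM, and the log2 difference was 0.37 (SE 0.06, limma adjusted p = 0.00196). In each activator gene the exact two-sided permutation test over the 8 libraries gave p = 0.0286, the smallest that 4 against 4 libraries allow.

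Tfdp1 encodes DP1, a partner with which E2F1 to E2F6 bind DNA. It had the highest level of the family in Nrp-1+ iTreg, at 66.4, 66.5, 68.5 and 67.6 FPKM, and was at 43.3, 43.6, 42.6 and 39.3 FPKM in Nrp-1- iTreg. The groups were far apart, and replicate 4 was the lowest Nrp-1- library. The means of 67.3 ± 0.984 and 42.2 ± 2.02 FPKM (SD, n = 4 each) differed by 59.3%, with a log2 difference of 0.66 (SE 0.03, limma adjusted p = 2.73e-06). The increase was of a size like that of E2f2, 0.64 on the same scale.

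Both atypical repressor genes, E2f7 and E2f8, were higher in Nrp-1+ iTreg. E2f8 was at 28.6, 27.8, 28.2 and 29.5 FPKM in Nrp-1+ iTreg and at 14.1, 14.5, 15.0 and 14.7 FPKM in Nrp-1- iTreg. Its lowest Nrp-1+ library was well above its highest Nrp-1- library. The means were 28.5 ± 0.740 and 14.6 ± 0.363 FPKM (SD, n = 4 each), a log2 difference of 0.92 with an SE of 0.03 and an interval at 95% confidence of 0.86 to 0.99 (limma adjusted p = 2.33e-07), which ranked 110th of all tested genes by increase. E2f7 was lower in level, at 6.39, 6.32, 6.38 and 5.95 FPKM in Nrp-1+ iTreg and 3.04, 3.38, 3.16 and 2.88 FPKM in Nrp-1- iTreg. Replicate 4 was the lowest in both groups, and the groups stayed apart. The ratio of the E2f7 means, 6.26 ± 0.208 and 3.12 ± 0.211 FPKM, was 2.01. On the log2(FPKM + 1) scale, which understates changes of low genes, the E2f7 difference was 0.82 (SE 0.05, limma adjusted p = 4.50e-06). E2f7 and E2f1, at 0.81, are not separated in rank, since their intervals overlap and E2f1 exceeded E2f7 when some single libraries were left out. At a pseudocount of 0.1, the difference of E2f7 (0.99) was above that of E2f8 (0.96).

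E2f4, the E2F gene whose product mostly serves repressor complexes in resting cells, was at 46.5, 47.5, 47.8 and 45.6 FPKM in Nrp-1+ iTreg and 45.5, 46.3, 48.9 and 49.5 FPKM in Nrp-1- iTreg. The groups overlapped, and the highest and the lowest value were both in Nrp-1- libraries. The means were 46.9 ± 1.02 and 47.6 ± 1.94 FPKM (SD, n = 4 each), and the log2 difference of -0.02 had an interval at 95% confidence of -0.09 to 0.05 (limma adjusted p = 0.642), which turned to 0.04 when short RNA genes were left out. The interval does not reach the difference of any of the 8 genes that rose, the smallest of which was 0.37. E2f4 fragments were about 1470 to 2161 per library, more than those of E2f1 or E2f7.

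**Figure D2:**
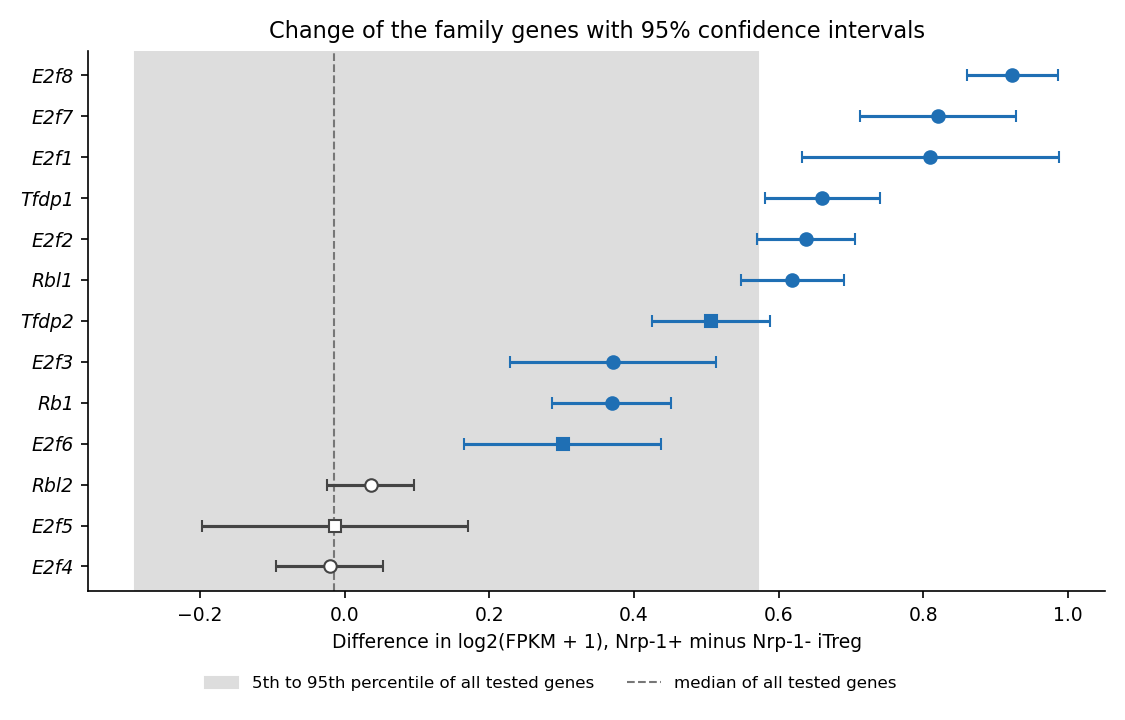
Differences in log2(FPKM + 1) between Nrp-1+ and Nrp-1- iTreg (horizontal axis) for the 10 genes (circles) and for E2f5, E2f6 and Tfdp2 (squares), with intervals at 95% confidence, filled where the limma adjusted p was under 0.05. The grey band from -0.29 to 0.57 holds the 5th to the 95th percentile of all tested genes, and E2f8, E2f7, E2f1, Tfdp1, E2f2 and Rbl1 lie to the right of it.

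Of the pocket protein genes, Rb1 and Rbl1 rose and Rbl2 did not pass the test. Rb1, the retinoblastoma gene whose product restrains the activator E2Fs, was at 29.8, 31.4, 30.5 and 28.1 FPKM in Nrp-1+ iTreg and at 23.7, 23.0, 22.3 and 22.8 FPKM in Nrp-1- iTreg. The groups did not overlap, and the increase was among the smallest of the 8 genes that rose. The means were 29.9 ± 1.38 and 23.0 ± 0.595 FPKM (SD, n = 4 each), 30.5% apart, with a log2 difference of 0.37 (SE 0.04, limma adjusted p = 0.000102). Rbl1, which encodes p107 and is known as an E2F target itself, was at 33.2, 34.7, 33.6 and 32.8 FPKM in Nrp-1+ iTreg and at 21.8, 21.2, 22.4 and 20.6 FPKM in Nrp-1- iTreg. All Nrp-1+ libraries lay above all Nrp-1- libraries by several times the SD of a group. The Rbl1 means of 33.6 ± 0.799 and 21.5 ± 0.786 FPKM differed by 56.0%, a log2 difference of 0.62 (SE 0.03, limma adjusted p = 2.14e-06).

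Rbl2, which encodes p130, the pocket protein of quiescent cells, was at 31.0, 31.9, 30.5 and 32.0 FPKM in Nrp-1+ iTreg and at 31.5, 30.7, 30.2 and 29.8 FPKM in Nrp-1- iTreg. The ranges overlapped. The means were 31.3 ± 0.718 and 30.5 ± 0.766 FPKM (SD, n = 4 each), and the log2 difference was 0.04 with an interval at 95% confidence of -0.02 to 0.10 (limma adjusted p = 0.304). The exact permutation test gave p = 0.171 for Rbl2 and p = 0.571 for E2f4. The Rbl2 interval lies below the differences of Rb1 and Rbl1.

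On the FPKM scale, which is per length, the order of levels differed between the groups. In Nrp-1+ iTreg the order from the highest was Tfdp1, E2f2, E2f4, Rbl1, Rbl2, Rb1, E2f8, E2f1, E2f7 and E2f3, and the library ranges of neighbours overlapped for Rbl2 with Rb1, Rb1 with E2f8 and E2f7 with E2f3. In Nrp-1- iTreg the order was E2f4, Tfdp1, E2f2, Rbl2, Rb1, Rbl1, E2f8, E2f1, E2f3 and E2f7, with overlap for Tfdp1 with E2f2 and Rb1 with Rbl1. E2f4 was thus the third in Nrp-1+ iTreg and led the order in Nrp-1- iTreg, with means of 46.9 and 47.6 FPKM. Rbl1 stood above Rbl2 in Nrp-1+ iTreg and below it in Nrp-1- iTreg, in both cases with ranges apart. The E2f7 range lay below that of E2f3 in Nrp-1- iTreg and overlapped it in Nrp-1+ iTreg.

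The make-up of the family RNA shifted with these levels. The summed FPKM of the 6 E2F genes was 162.3 ± 3.44 in Nrp-1+ iTreg and 115.9 ± 2.68 in Nrp-1- iTreg (SD, n = 4 each). The activators E2f1 to E2f3 made up 49.7% ± 0.922 of that sum in Nrp-1+ iTreg and 43.7% ± 1.28 in Nrp-1- iTreg, with library ranges of 48.4% to 50.5% and 42.9% to 45.6%. E2f4 made up 28.9% ± 0.838 and 41.0% ± 1.07, ranging over 28.0% to 30.0% and 39.5% to 42.0%. The atypical E2f7 and E2f8 made up 21.4% ± 0.460 and 15.3% ± 0.458. The shares of all these classes were apart between the groups in every library, with E2f4 the class whose share was smaller in Nrp-1+ iTreg. No test was run on these shares, which follow from the single genes above.

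The summed FPKM of the 3 pocket protein genes was 94.9 ± 2.18 in Nrp-1+ iTreg and 75.0 ± 1.58 in Nrp-1- iTreg (SD, n = 4 each). Rbl1 made up 35.4% ± 0.0999 and 28.7% ± 0.860 of it, and Rbl2 made up 33.0% ± 0.956 and 40.7% ± 0.335. The Rb1 share was 31.6% ± 0.890 and 30.6% ± 0.596, and its library ranges overlapped. So the pocket protein RNA held more Rbl1 and less Rbl2 per unit in Nrp-1+ iTreg, with overlapping shares of Rb1.

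**Figure D3:**
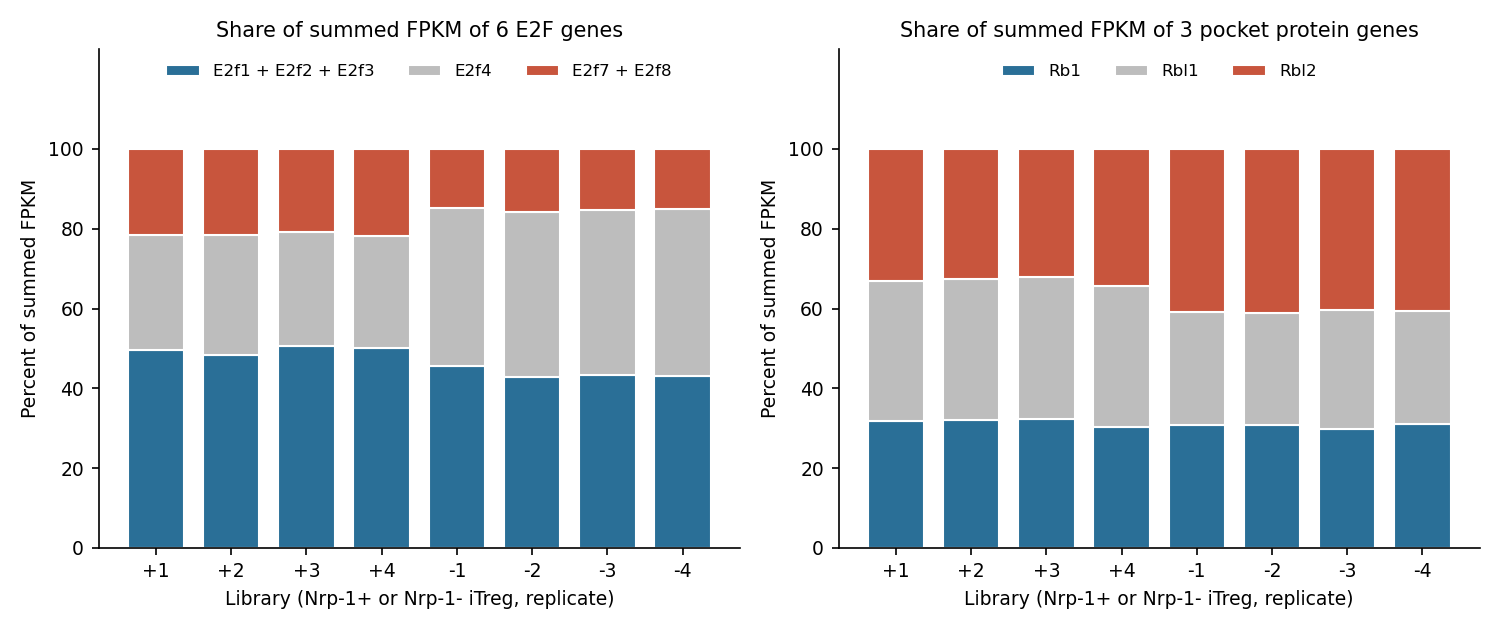
Percent of summed FPKM (vertical axes, from 0) in each of the 8 libraries (+1 to +4 Nrp-1+ iTreg, -1 to -4 Nrp-1- iTreg), at the left for 3 classes of the 6 E2F genes and at the right for the 3 pocket protein genes. E2f4 takes 28.0% to 30.0% of the E2F sum in Nrp-1+ and 39.5% to 42.0% in Nrp-1- libraries, and Rbl2 takes the largest part of the pocket protein sum in Nrp-1- libraries.

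Ratios within a library do not depend on how libraries are scaled, and those of 6 pairs, chosen after the values were seen, are given as a description that restates the single genes. The ratio of Rbl1 to Rbl2 was 1.03 to 1.10 in Nrp-1+ iTreg and 0.689 to 0.744 in Nrp-1- iTreg, a log2 difference of 0.60. That of Rb1 to Rbl2 was 0.880 to 1.00 and 0.739 to 0.766, and that of Rbl1 to Rb1 was 1.10 to 1.17 and 0.905 to 1.01. The ranges of these 3 ratios did not overlap between the groups. E2f8 to E2f4 was 0.585 to 0.647 and 0.298 to 0.312, and E2f1 to E2f4 was 0.224 to 0.277 and 0.120 to 0.150. The ratio of the repressor gene E2f8 to the activator gene E2f1 was 2.18 to 2.61 in Nrp-1+ iTreg and 2.07 to 2.61 in Nrp-1- iTreg, with overlap and a log2 difference of 0.06.

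The other E2F and DP genes of the table, which are not among the 10, were E2f5, E2f6 and Tfdp2. E2f6 encodes a repressor that works without pocket proteins and was at 12.8, 11.0, 12.4 and 12.2 FPKM in Nrp-1+ iTreg and at 10.3, 9.52, 8.68 and 10.0 FPKM in Nrp-1- iTreg. These groups were apart by a narrow gap, and the log2 difference was 0.30 (SE 0.06, limma adjusted p = 0.00438). Tfdp2, which encodes another DP partner, was at 8.36, 8.48, 8.03 and 7.89 FPKM and at 5.66, 5.24, 5.43 and 5.55 FPKM, with a log2 difference of 0.51 (SE 0.04, limma adjusted p = 1.44e-05). E2f5, a close relative of E2f4, was low in all libraries, at 1.70, 1.76, 1.68 and 2.31 FPKM and at 1.86, 1.80, 2.02 and 1.84 FPKM. The E2f5 groups overlapped, with a log2 difference of -0.01 (limma adjusted p = 0.909) whose sign turned in some alternatives. Both DP genes thus rose, and the E2F4-like genes E2f4 and E2f5 did not pass the test.

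A list of 27 E2F target genes of S phase, chosen with earlier results of these data known, was higher in Nrp-1+ iTreg. All 27 passed the filter and rose, beside 20.9% of all tested genes, with log2 differences of at least 0.54 and a median of 0.88. Tk1, the thymidine kinase gene of nucleotide salvage, was at 60.2 FPKM in Nrp-1+ and 28.4 FPKM in Nrp-1- iTreg, a log2 difference of 1.06. Mcm5, a subunit of the replicative helicase, was at 83.0 and 41.0 FPKM with a log2 difference of 1.00. The lowest log2 difference of the 27, 0.54, was above those of E2f3, Rb1, E2f4 and Rbl2. Of the 23 list genes with a promoter window, 13 held the E2F site (56.5%), beside 5.26% of all tested genes with a window. The CHR letters were found in 4 of the 23 (17.4%), beside 13.9%.

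The MuvB core acts with p107 and p130 in the DREAM complex, and with MYB and FOXM1 partners later, up to mitosis. Of the 8 genes of the core and these partners, 6 rose and 0 fell, beside 20.9% higher and 20% lower among all tested genes. Their median log2 difference was 0.51. The increases were led by the partners that enter in dividing cells. Mybl2 (B-MYB) was at 13.6 FPKM in Nrp-1+ iTreg and 6.80 in Nrp-1- iTreg, Foxm1 was at 40.5 and 21.5 FPKM, and Mybl1 was at 4.03 and 1.95 FPKM, with log2 differences of 0.91, 0.88 and 0.77. Lin37 and Lin52, subunits of the core, did not pass the test (limma adjusted p = 0.699 and 0.0614).

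Of 15 genes of the kinases that phosphorylate pocket proteins and of their inhibitors, 13 passed the filter, 10 rose and 1 fell, where 20.9% of all tested genes rose and 20% fell. Ccne2, a cyclin E gene that is itself an E2F target, was at 7.45 FPKM in Nrp-1+ iTreg and 3.28 in Nrp-1- iTreg, a log2 difference of 0.98. The inhibitor genes Cdkn1a (p21) and Cdkn2c (p18) rose too, from 34.7 to 61.9 FPKM and from 44.1 to 75.4 FPKM between Nrp-1- and Nrp-1+ iTreg, log2 differences of 0.82 and 0.76. The gene that fell was Cdkn1b, which encodes p27, an inhibitor that is high in resting cells, at 89.9 FPKM in Nrp-1+ and 102.4 FPKM in Nrp-1- iTreg and a log2 difference of -0.19 (limma adjusted p = 0.00204). The list thus holds members that promote and members that restrain the cycle among those that rose. Its median log2 difference was 0.39, and Ccnd1 and Cdkn2b were under the filter.

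**Figure D4:**
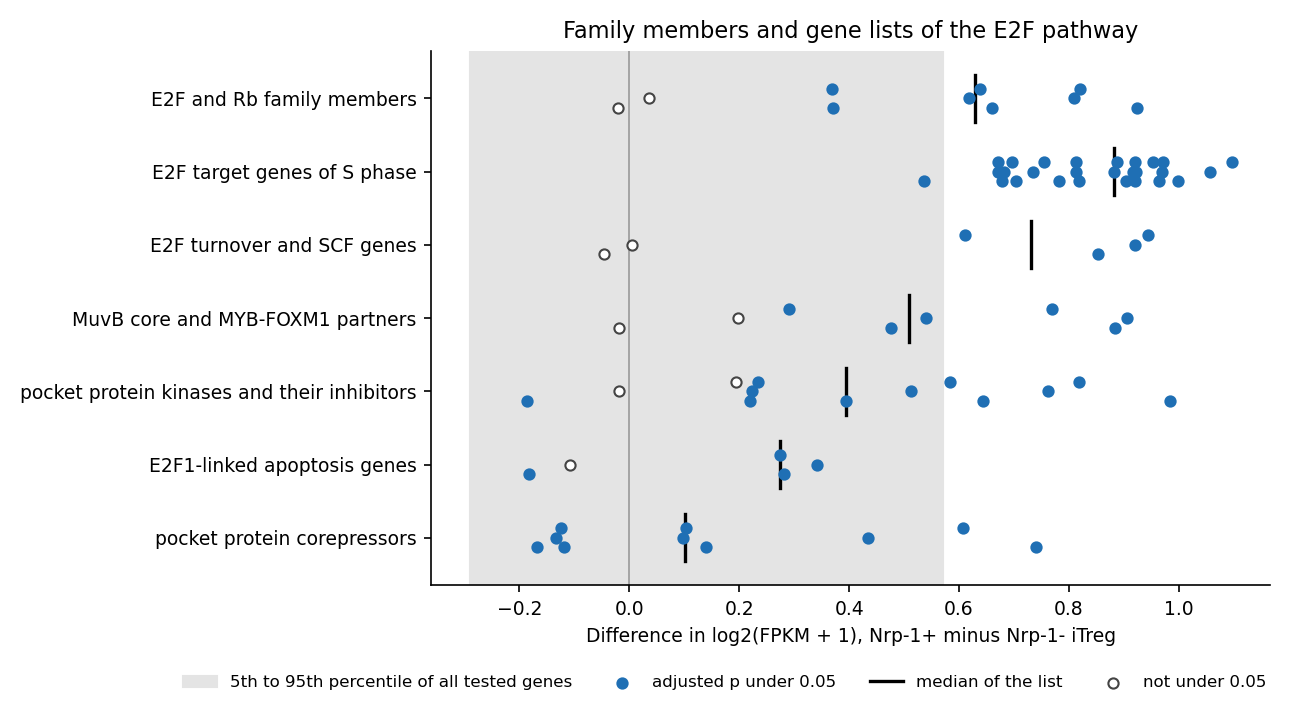
Difference in log2(FPKM + 1) between Nrp-1+ and Nrp-1- iTreg (horizontal axis) for each tested gene of the family and of 6 lists of the E2F pathway, with a vertical line for the median of a list and a grey band for the 5th to the 95th percentile of all tested genes. All 27 E2F target genes lie above 0.5, and the corepressor genes lie on both sides of 0.

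Of 6 genes of protein turnover around E2F 4 rose and 0 fell (all tested genes 20.9% and 20%), with a median log2 difference of 0.73. Ccnf, which encodes the cyclin F of an SCF ubiquitin ligase, was at 43.4 FPKM in Nrp-1+ and 22.1 FPKM in Nrp-1- iTreg, Fbxo5, the inhibitor of the anaphase promoting complex also called EMI1, at 60.6 and 31.5 FPKM, and Cks1b, the cofactor of SKP2, at 157.7 and 86.9 FPKM. The log2 differences were 0.94, 0.92 and 0.85. Cul1 and Skp1a, which encode the scaffold and the adaptor shared by all SCF ligases, did not pass the test (limma adjusted p = 0.183 and 0.925).

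Of 10 genes of corepressors that pocket proteins recruit, 6 rose and 4 fell, against 20.9% and 20% of all tested genes, with a median log2 difference of 0.10. The groups overlapped for Hdac2, a histone deacetylase gene among those that rose (limma adjusted p = 0.0390), which is named after its values were seen. Suv39h1, a histone H3 lysine methyltransferase gene, was at 23.1 FPKM in Nrp-1+ and 13.4 FPKM in Nrp-1- iTreg, and Rbbp7, a histone chaperone gene, at 121.3 and 89.5 FPKM, with log2 differences of 0.74 and 0.43. Rbbp8 (CtIP, a DNA end resection factor) rose by a log2 difference of 0.61. The largest decreases were small. Arid4b and Sin3b, of the SIN3 complex, and Kdm5a, a histone demethylase gene first found as an RB1 partner, had log2 differences of -0.17, -0.13 and -0.13. These decreases are smaller than the 5th percentile of all tested genes, -0.29, in size.

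Apoptosis genes linked to E2F1 had smaller log2 differences than the S phase targets. Of 7 genes 5 passed the filter, 3 rose and 1 fell, with a median log2 difference of 0.27. The share that fell equals the 20% of all tested genes, and 20.9% of those rose. The apoptosome gene Apaf1 rose, at 17.0 FPKM in Nrp-1+ and 13.9 FPKM in Nrp-1- iTreg, a log2 difference of 0.27. Bbc3 (PUMA), a BH3-only gene, was at 49.8 FPKM in Nrp-1+ and 56.6 FPKM in Nrp-1- iTreg, a log2 difference of -0.18 (limma adjusted p = 0.000741). Trp73 was under the filter, and Hrk was listed at 0 in all libraries.

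Over all genes with a promoter window the E2F site went with a small shift. Of the 7700 tested genes with a window, 405 (5.26%) held the site, and their median log2 difference was 0.08, with 40.2% higher and 10.6% lower in Nrp-1+ iTreg. The 7295 genes without it had a median of -0.02, with 20.4% higher and 21.4% lower. Seen from the other side, 9.88% of the higher and 2.68% of the lower genes with a window held the site. These shares were chosen after values were seen and are given with no test, and the base composition of promoters with the site was not compared.

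The genes whose log2(FPKM + 1) followed that of E2f8, the gene with the largest difference on this scale, most closely over the 8 libraries were Tuba1b, Cdca8, Tubb4b, Tk1 and Tubb5, each with a Pearson r of 0.999. The tubulin genes encode parts of microtubules, those of the mitotic spindle among them, and Cdca8 belongs to the chromosomal passenger complex. The 8 points fall into the 2 sorted groups, which do not overlap for E2f8, so r describes the difference between groups together with the spread within them. For E2f4, the gene with the lowest log2 difference, they were Shfm1, Xpnpep3, Vps25, Mterfd3 and Immp1l, with r from 0.918 to 0.973. Genes measured in the same libraries share depth and scaling, and no p is given.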

How the data were processed

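Reads had been handled by the authors in the CLC Genomics Workbench, with FPKM from Cufflinks, per the study's methods. The deposited table gives 1 FPKM value per gene symbol and library. The submitters' processing notes name the builds GRCm38 and mm10. Aligner settings and the annotation are not given in the sources used here. The labels and the study's methods name different library kits. No per-sample column was left unused (0), and nTreg libraries were not analysed here.

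FPKM is not a count, and limma 3.58.1 (lmFit, eBayes with trend) in R 4.3.3 was applied to log2(FPKM + 1) of the genes averaging at least 1 over the 8 libraries (10467 of 23361, of which 7072 were listed at 0 throughout). P-values were two-sided and adjusted by Benjamini and Hochberg over all tested genes. Intervals are at 95% confidence. Exact permutation tests of 4 against 4 libraries (70 relabellings) used Python 3.11.15 with scipy 1.17.1, numpy 2.4.6 and pandas 2.3.3, and plots matplotlib 3.10.9.

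The depth was estimated from genes with FPKM under 0.3, where 66.9% to 69.7% of the ratios between libraries were ratios of whole numbers up to 6 within 0.2%. Relative depth was 0.994 to 1.22 in Nrp-1+ iTreg and 0.810 to 1.24 in Nrp-1- iTreg, so both groups had like precision, and the fragment numbers are approximate. No library was a copy of another: the median absolute log2 difference between libraries of a group was 0.0589 to 0.0759. Over all tested genes, deviations of equally numbered libraries did not go together, so the numbers were not used as pairs.

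The 10 genes and the lists were chosen with earlier results of these data known. Among the called genes of each list, at most 3 are named per direction, those of the largest difference. Some of these genes are not reported here. Genes of like pattern are the 5 with the highest Pearson r. Pair ratios, promoter motifs, and the correction for GC content and length (natural splines with 5 degrees of freedom, longest GENCODE M21 transcript, 99.4% of tested genes) were chosen after values were seen. Promoter sequences are from RefSeq, build GRCm38.p6. The fit was repeated with each library left out, without short RNA genes (795 genes, 270 tested), with the replicate block, array weights, no trend, quantile normalization or median-of-ratios size factors, at a minimum of 5 or without one, and at pseudocounts of 0.5 and 0.1.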

Additional observations from a re-analysis of the deposited data

Results flagged for a closer look

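The libraries of each group were searched for a single library far from the other 3 (by Dixon's ratio of its gap to the range of the group) in 34 sets of values, of which chance alone marks about 1.7. Replicate 4 of Nrp-1+ iTreg had E2f7 at 5.95 FPKM, below the 6.32 to 6.39 FPKM of the other libraries of its group and above all Nrp-1- libraries. In Nrp-1- iTreg replicate 1 the genes E2f1 to E2f3 made up 45.6% of the summed E2F FPKM, against 42.9% to 43.2% in the other libraries of that group. In Nrp-1- iTreg replicate 3 Rbl1 made up 30.0% of the summed pocket protein FPKM, against 28.2% to 28.3% in the others. The relative depth of replicate 3 of Nrp-1+ iTreg was 1.22, against 0.994 to 1.00 in the others. None of these libraries reached the values of the other group in the 3 measures of expression, and no cause was tested.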

How the results depend on the processing

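The 8 increases kept their direction and their adjusted p under 0.05 (limma) in every alternative run, except that E2f3 and E2f7 were not tested at a filter of a mean FPKM of 5, which left 6 members called. Over the alternatives the log2 differences ran from 0.33 to 0.44 for E2f3 (highest adjusted p = 0.00851), 0.33 to 0.43 for Rb1, 0.76 to 0.89 for E2f1 and 0.79 to 0.99 for E2f7. E2f4 and Rbl2 stayed without a call (adjusted p 0.138 to 0.980 and 0.0947 to 0.974). Without short RNA genes E2f4 turned to 0.041 (limma adjusted p = 0.392) and E2f5 to 0.027. In that fit, of 10205 tested genes, those higher in Nrp-1+ iTreg numbered 2956 (main 2189) and those lower 1065 (main 2093). Leaving out single libraries moved E2f5 over a range from -0.086 to 0.016 (above 0 without replicate 1, 2 or 3 of Nrp-1+ iTreg or replicate 3 of Nrp-1- iTreg). With FPKM + 1 in the shares, that of E2f7 and E2f8 differed by 5.72 percentage points (main 6.18). The labels give no shared origin for replicate numbers, and same-numbered libraries did not deviate together over all tested genes (mean correlation -0.26, and -0.07 without short RNA genes, with 0 of 4 pairs over 0.1 in both). Over the 10 genes alone the mean was 0.075 (-0.60 to 0.50), with 3 of 4 pairs over 0.1. The replicate block gave 1931 higher and 1675 lower genes and changed no call of the 10 genes. Among the family genes, depth limits E2f5 most, at about 54 to 76 fragments per library.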
